A study of Mus musculus with 20 samples.

Results

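The comparison described here sets tumour endothelium from hosts labelled CD4KO, classed by the submitters as deficient in CD4 T cells, against tumour endothelium from wild type (WT) hosts, classed as competent. It uses 7 of the 20 bulk RNA libraries of the series, 3 titled CD4KO (CD4KO_9768, CD4KO_9769 and CD4KO_9770) and 4 titled WT (WT_9748, WT_9749, WT_9771 and WT_9772), chosen by title alone. All hosts were C57BL/6J mice bearing mammary fat pad tumours of E0771, a mouse mammary carcinoma line, and the tumours were taken at 500 mm3. CD31-positive cells were enriched with beads and then sorted from the dissociated tumours. The other 13 libraries came from hosts labelled CD8KO, TCRKO, Tie2Cre and Tie2Cre_H2Abf, the last labelled Tie2Cre with H2Ab fl/fl, where Tie2 drives Cre in endothelial and many blood cells. TCRKO and Tie2Cre_H2Abf are also classed as deficient in CD4 T cells, and CD8KO and Tie2Cre as competent. The labels give no allele for the CD4KO background and no ages. They also do not tie the libraries to separate animals, so a p-value here reflects the spread among the samples fitted alone, which may be technical. In the main gene test the samples fitted are all 20 libraries.

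CD4 T cells recognise peptides on MHC class II and help other immune cells, in part through interferon-gamma. Endothelial cells of a tumour vessel answer interferon-gamma with guanylate-binding proteins, chemokines and antigen presentation genes, and they answer VEGF, Notch and flow with genes of sprouting, junctions and lipid uptake. The comparison asks how tumour endothelium differs between hosts with and without CD4 T cells.

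No single gene passed the test between CD4KO and WT. Of 14875 genes tested with edgeR's quasi-likelihood test, 0 had a Benjamini-Hochberg adjusted p under 0.05 in either direction (0% called). At an unadjusted p under 0.05 there were 600 genes higher (4.03% of those tested) and 677 lower (4.55%), or 1277 in all (8.58%). These counts rest on a spread estimated from all 20 libraries. With edgeR fitted on only the 7 libraries there were 143 higher and 115 lower of 9816 genes tested. Limma-voom also called 0 genes, with 528 higher and 240 lower of 14875 at an unadjusted p under 0.05. DESeq2 had 734 and 1116 at that level, but of 33340 genes, as it was fitted without the filter on low counts. DESeq2 called 122 genes from the same counts, 59 higher and 63 lower, and in 40 of them 1 group held 3 counts or fewer in all. Of these 122 genes, 38 had a mean of at least 10 CPM (counts scaled to library size), and all 116 that edgeR also tested had the same direction there. Among genes with at least 10 CPM, Kctd12 and Trp53inp2 had the smallest p, both higher in CD4KO. Below that level 3 genes, Mpp2, Zfp523 and Rnf20, also had a p under that of Trp53inp2. Over all tested genes the median log2 change was -0.08, and it was -0.21 with RLE in place of TMM scaling factors. Among genes with at least 10 CPM it was 0.07 and -0.02.

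CD4KO_9768 and WT_9771 stood apart from the other libraries of their groups. Satellite-like genes took 47.1% of all counts in WT_9771 and 1.86% in CD4KO_9768, against 0.019% to 0.983% in the other 5 libraries. Olfactory and vomeronasal receptor genes, which are mostly silent outside sensory tissue, took 0.142% in WT_9771 and 0.0743% in CD4KO_9768, with 642 and 229 of these receptor genes holding a count. The others lay between 0.00103% and 0.02%. Total counts ran from 2014883 (WT_9771) to 9561245 (CD4KO_9770), and protein-coding genes outside these classes held 9.84% to 36.7% of them. Ribosomal-RNA-like genes took 41.2% to 86.8%. None of these measures separated the groups: exact permutation p-values for total count, genes with a count and the class shares were between 0.171 and 1, 2-sided, and with 3 against 4 libraries no value below 0.0571 can occur. Spearman correlations across the 4313 genes with a mean of at least 10 CPM were lowest between CD4KO_9768 and WT_9771 (0.356) and highest between CD4KO_9770 and WT_9748 (0.753). Some of the results below are also given without these libraries. Where nothing is said of them, a value includes both.

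**Figure D1:**
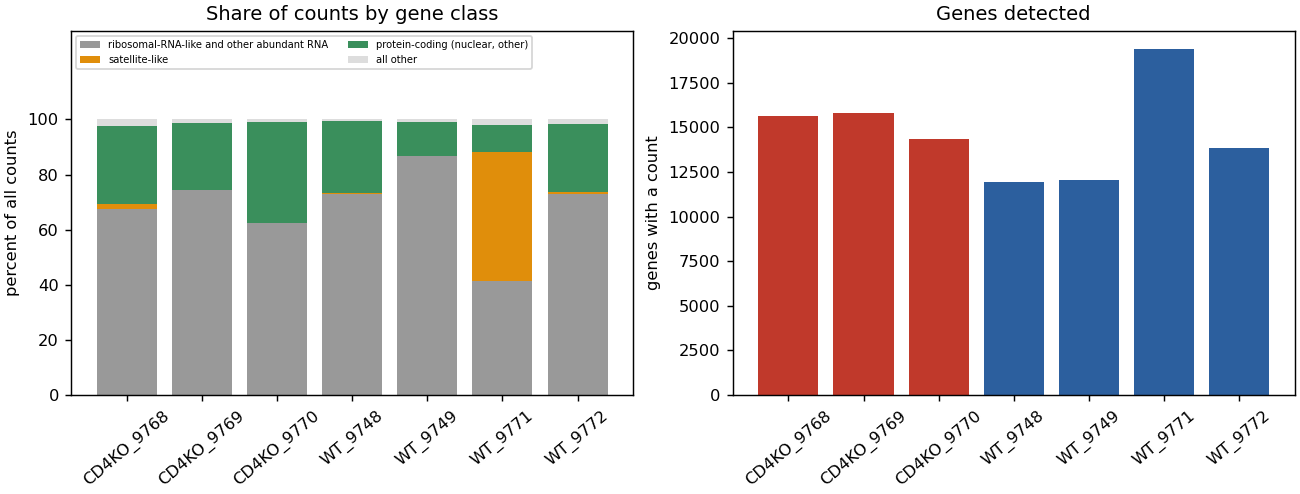
Left, percent of all counts held by gene classes in each of the 7 libraries. Right, number of genes with a count, CD4KO in red and WT in blue. WT_9771 has 47.1% satellite-like counts and the most genes detected (19420).

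The endothelial label held in every library. Pecam1, which encodes CD31, stood at 610, 812 and 1285 CPM in CD4KO_9768, CD4KO_9769 and CD4KO_9770 and at 1151, 1078, 435 and 1207 CPM in WT_9748, WT_9749, WT_9771 and WT_9772. In this order of libraries, which is kept throughout, Cdh5 (VE-cadherin) stood at 672, 1246 and 1657 against 1840, 1497, 800 and 1375 CPM. The genes of the endothelial identity list summed to 5069 to 9870 CPM in CD4KO and 3504 to 8211 CPM in WT, lowest in WT_9771. Epcam, an epithelial surface protein, had 0 counts in all 7 libraries. The 15 markers of mammary carcinoma and epithelium, which include Epcam, summed to 4.35 to 6.59 CPM in CD4KO and 0.425 to 20.5 CPM in WT. The highest sum was in WT_9771. Markers of pericytes and mural cells summed to 328 to 566 CPM in CD4KO and 209 to 554 CPM in WT. Macrophage markers were present in all of them, with 678 to 1002 CPM in CD4KO and 430 to 1034 CPM in WT summed over 20 genes. Summed fibroblast markers were 60.5, 38.4 and 27.5 CPM in CD4KO and 6.46, 0.425, 46 and 15.3 CPM in WT.

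Cd4 RNA did not separate the groups. Cd4 counts were 72, 33 and 102 in CD4KO and 17, 41, 19 and 2 in WT, or 15.7, 4.22 and 7.55 CPM against 2.81, 8.71, 15.6 and 0.379 CPM. The values overlap, with a log2 change of 0.45 ± 1.39 (approximate SE, edgeR adjusted p = 0.966). The gene tables do not show which part of a transcript the reads cover, so RNA from outside a deleted part would still be counted, and the level checks neither the label nor the absence of the protein. T cell genes were close to the limit of counting: Cd3e had 0, 11 and 10 counts in CD4KO and 0 in each WT library, Cd8a had 0, 23 and 0 against 0, 0, 3 and 0, and Trac had 7, 6 and 2 against 0, 0, 1 and 0. Cd3d and Cd3g had 0 counts in all 7 libraries. In bulk RNA, fewer cells of a type and less RNA per cell cannot be told apart.

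Among genes with a mean of at least 10 CPM over the 7 libraries, the 12 with the smallest p in each direction are described as the leading genes. They were chosen for these values, so their counts and folds are a description. Of all 4313 genes at this level, 201 were higher (4.66%) and 93 lower (2.16%) at an unadjusted p under 0.05. Promoters are shown first, for the genes at the head of each direction. The sequences are RefSeq's, build GRCm38.p6, from 250 bases before to 50 bases after the annotated start, read 5′ to 3′ on the strand of the gene. Capitals mark matches on either strand to the GC box GGGCGG, the CCAAT box CCAAT, the TATA box TATAAA and the cyclic-AMP element TGACGTCA.

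The promoter of Kctd12 (chr14:102982588-102982887, minus strand) and that of Trp53inp2 (chr2:155381606-155381905, plus strand) head the higher genes, and that of Stam (chr2:14073850-14074149, plus strand) heads the lower ones.
Kctd12: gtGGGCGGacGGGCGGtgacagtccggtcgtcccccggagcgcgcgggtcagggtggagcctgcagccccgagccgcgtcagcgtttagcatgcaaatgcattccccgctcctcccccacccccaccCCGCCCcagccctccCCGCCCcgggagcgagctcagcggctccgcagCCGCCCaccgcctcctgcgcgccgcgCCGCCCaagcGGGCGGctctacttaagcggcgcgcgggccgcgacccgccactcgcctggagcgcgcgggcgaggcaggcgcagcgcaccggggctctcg
Trp53inp2: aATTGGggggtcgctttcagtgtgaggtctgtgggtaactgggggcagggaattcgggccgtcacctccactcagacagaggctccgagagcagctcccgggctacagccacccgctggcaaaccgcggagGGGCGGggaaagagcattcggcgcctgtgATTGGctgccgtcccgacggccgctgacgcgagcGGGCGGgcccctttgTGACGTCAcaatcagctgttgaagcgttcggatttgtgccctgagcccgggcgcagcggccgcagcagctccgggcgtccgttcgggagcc
Stam: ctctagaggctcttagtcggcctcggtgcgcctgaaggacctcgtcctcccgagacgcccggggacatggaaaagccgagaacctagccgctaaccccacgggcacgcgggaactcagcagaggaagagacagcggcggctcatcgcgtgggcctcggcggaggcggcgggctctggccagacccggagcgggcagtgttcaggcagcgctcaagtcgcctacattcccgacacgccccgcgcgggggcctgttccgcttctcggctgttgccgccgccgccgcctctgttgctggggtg
Kctd12 holds 7 GC boxes, and 78% of its bases are G or C. Trp53inp2 holds 2 GC boxes, 2 CCAAT boxes and 1 cyclic-AMP element, and Stam holds none of these motifs in this window. Of the 24 leading genes 21 had a promoter in the table; the others are Clint1, Loxl2 and Trmt1. Some of these genes have several listed starts, which gives 15 promoters in each direction. A GC box lay in 9 of the 15 promoters of higher genes and 9 of the 15 of lower genes, beside 35.7% of all 32851 promoters of this length. A CCAAT box lay in 7 and 6 of them, beside 37.4%, the cyclic-AMP element in 1 and 0, beside 1.79%, and a TATA box in 0 and 1, beside 13.6%. Promoters of 1 gene can overlap and are not independent. None of these motifs contains another, and a match describes the sequence only.

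Kctd12, on chromosome 14 (102976581 to 102982637), encodes an auxiliary subunit of GABA-B receptors. It stood at 39.7, 36 and 41.6 CPM in CD4KO and at 2.48, 2.12, 1.64 and 10.8 CPM in WT. The lowest CD4KO library lay above the highest WT library, which was WT_9772. The log2 change was 3.13 ± 0.60 (edgeR adjusted p = 0.161), and 2.92 ± 0.65 without CD4KO_9768 and WT_9771 (adjusted p = 0.244). Without WT_9772 it was 4.18 ± 0.61 and passed the threshold in edgeR (adjusted p = 0.00621), the 1 gene to do so when any single library was left out. Over the alternatives tried the adjusted p of Kctd12 ran from 1.18e-05, with DESeq2, to 1.

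Trp53inp2, a protein that promotes autophagosome formation, stood at 19.2, 18.9 and 24 CPM in CD4KO and at 2.65, 6.58, 0 and 2.27 CPM in WT. The groups do not overlap, and the log2 change was 2.73 ± 0.58 (adjusted p = 0.234, edgeR). Trmt1, an enzyme that methylates guanosine in transfer RNA, stood at 45.9, 18 and 21.5 against 6.46, 4.25, 1.64 and 4.73 CPM. All CD4KO libraries were again above all WT libraries, with a log2 change of 2.67 ± 0.61 (adjusted p = 0.356, edgeR).

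Signalling and cytoskeletal genes formed part of the leading higher set. Tlnrd1, an actin-bundling protein, stood at 7.42, 12.8 and 49.7 CPM in CD4KO and at 6.29, 2.55, 0.821 and 2.08 CPM in WT, highest in CD4KO_9770. Pim3, a serine/threonine kinase, stood at 51.7, 33.7 and 26.3 against 1.82, 12.3, 2.46 and 5.68 CPM. Nfkb2, the p100 precursor of the non-canonical NF-kappaB pathway, stood at 24.5, 21 and 98.9 against 15.2, 6.8, 2.46 and 14 CPM. CD4KO_9770 set much of the CD4KO mean in Tlnrd1 and Nfkb2 but not in Pim3, and in none of these genes did a CD4KO value fall into the WT range. Their log2 changes were 2.90 ± 0.68, 2.70 ± 0.67 and 2.28 ± 0.62, with edgeR adjusted p-values of 0.427, 0.549 and 0.573. Rras, a small GTPase of endothelial barrier control, stood at 39.5, 27 and 53.2 against 21.2, 12.5, 4.92 and 13.6 CPM. Its log2 change was 1.58 ± 0.44, the smallest of the 12.

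Some of the higher genes leaned on CD4KO_9768. Bysl, a factor of small ribosomal subunit assembly, stood at 59.2, 7.55 and 15.8 CPM against 5.46, 3.19, 0.821 and 7.38 CPM. Imp3, a component of the same assembly pathway, stood at 46.9, 12.9 and 8.95 against 1.32, 5.31, 4.1 and 5.87 CPM. Rnf44, a RING-finger protein, stood at 77.9, 23.7 and 29.3 against 19.2, 13.4, 4.92 and 6.63 CPM. In all of these CD4KO_9768 was the highest library, and without it and WT_9771 the log2 changes went from 2.63 to 1.14 for Bysl and from 1.95 to 1.03 for Rnf44. Pprc1, a coactivator of mitochondrial biogenesis, did not have this pattern, at 42.8, 53.6 and 52.8 against 11.6, 9.35, 2.46 and 24.4 CPM. Loxl2, a collagen cross-linking oxidase, stood at 63.1, 0.64 and 8.29 CPM and had 4 counts in all WT libraries together. It is the 1 higher leading gene whose libraries overlap.

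**Figure D2:**
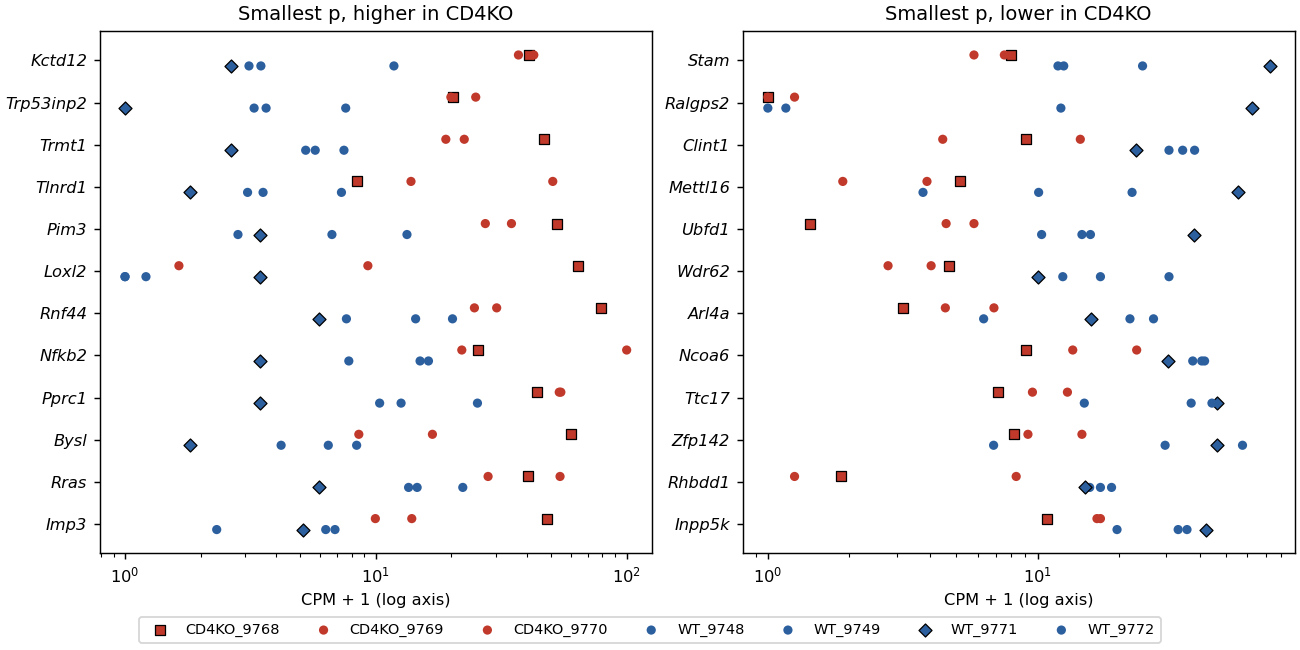
CPM + 1 on a log axis for the 12 leading genes of each direction; every point is 1 library, CD4KO in red, WT in blue, with CD4KO_9768 as a square and WT_9771 as a diamond. Kctd12 and Trp53inp2 show the CD4KO libraries close together and above all WT libraries, while Stam and Mettl16 show WT_9771 far to the right.

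Membrane traffic genes stood among the leading lower genes. Stam, an adaptor that sorts ubiquitinated receptors on endosomes, stood at 6.99, 6.53 and 4.81 CPM in CD4KO and at 10.9, 11.5, 71.4 and 23.5 CPM in WT. WT_9771 held the highest value, and the log2 change of -2.24 ± 0.65 was -1.42 ± 0.64 without CD4KO_9768 and WT_9771. Clint1, a clathrin adaptor of the Golgi and endosomes, stood at 8.08, 3.45 and 13.4 against 37.2, 29.7, 22.2 and 33.5 CPM. Here WT_9771 was the lowest WT library, and the log2 change was -1.88 ± 0.58 with all libraries and -1.97 ± 0.67 without CD4KO_9768 and WT_9771. The edgeR adjusted p was 0.573 for both genes.

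The other lower genes had several roles. Ncoa6, a nuclear receptor coactivator, stood at 8.08, 22.3 and 12.5 CPM against 36.6, 40.6, 29.5 and 39.6 CPM. Wdr62, a centrosome protein, stood at 3.71, 1.79 and 3.03 against 11.4, 16.1, 9.03 and 29.7 CPM. Inpp5k, a phosphoinositide phosphatase, stood at 9.83, 15.6 and 16.1 against 18.7, 34.8, 41 and 32.2 CPM. In none of these did the groups overlap, and the log2 changes were -1.36 ± 0.44, -2.55 ± 0.80 and -1.18 ± 0.41. Mettl16, an RNA methyltransferase, stood at 4.15, 0.896 and 2.89 against 21.4, 2.76, 54.2 and 9.09 CPM and overlapped. Rhbdd1, a rhomboid-family protease, stood at 0.873, 0.256 and 7.33 against 14.6, 16.1, 14 and 17.8 CPM, with the WT libraries close together. Of the others, Ubfd1 (-2.60) and Ttc17 (-1.95) did not overlap, and Arl4a (-2.10) and Zfp142 (-1.81) did. Ralgps2, an activator of Ral GTPases, had 2 counts in CD4KO and 135 in WT, of which 75 were in WT_9771 and 59 in WT_9772. The ratio of its summed counts per effective library was 0.00986 (exact 95% interval 0.00118 to 0.0363, counting error only).

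Libraries did not overlap in 11 of the 12 higher and 8 of the 12 lower genes, beside 2.94% and 1.58% of all genes with at least 10 CPM, and beside 406 (2.73%) and 177 (1.19%) of all tested genes. WT_9771 was the lowest WT library in 9 of 12 higher genes and the highest in 6 of 12 lower genes. CD4KO_9768 was the highest CD4KO library in 6 of 12 higher genes and the lowest in 7 of 12 lower genes. Without both, 9 of the 12 higher and 10 of the 12 lower genes still had an unadjusted p under 0.05, and 0 genes passed the adjusted threshold. DESeq2 with all libraries called 11 of the 12 higher and all 12 lower genes, beside 38 calls among the 4313 genes with at least 10 CPM. The leading genes were chosen from these same libraries, so these counts are no separate support.

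Leaving out CD4KO_9768 and WT_9771 moved the picture across all expressed genes. Of the 4313 genes with at least 10 CPM, 76.5% kept the sign of the change. Of the 294 with an unadjusted p under 0.05, 288 kept their sign and 99 (33.7%) kept a p under 0.05, which is 52.9% of the 187 genes under 0.05 without both. Over all tested genes the unadjusted counts went from 600 higher and 677 lower to 637 higher (4.01% of 15877) and 286 lower (1.8%). Higher genes made up 47% of these genes with all libraries, 70.2% without WT_9771 alone and 46.6% without CD4KO_9768 alone. Between these 2 libraries, the balance of directions changed with WT_9771. It was 68.8% with limma-voom and 39.7% with RLE factors.

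**Figure D3:**
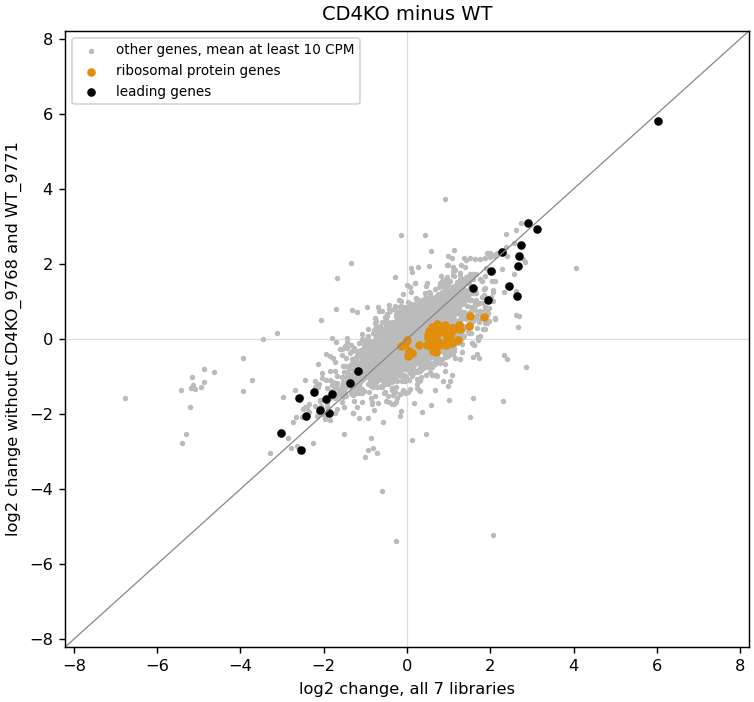
Log2 change of CD4KO against WT with all 7 libraries (x axis) and without CD4KO_9768 and WT_9771 (y axis) for genes with a mean of at least 10 CPM and more than 3 counts in each group; the grey line marks equal values. Ribosomal protein genes (orange) mostly lie below the line; over all 47 tested the median is 0.74 with all libraries and 0.03 without the pair. Leading genes are black.

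Gene groups are described by their counts, since no member passed the adjusted threshold. At an unadjusted p under 0.05 the 768 tested members of 50 lists included 53 higher (6.9%) and 8 lower (1.04%), beside 4.03% and 4.55% of all tested genes and 4.66% and 2.16% of those with at least 10 CPM. These shares are the background for each list below. Ribosomal protein genes of the cytosol mostly lay above 0 with all libraries. Of 47 tested, 9 were higher at an unadjusted p under 0.05, 0 were lower and 44 lay above 0, with a median log2 change of 0.74 beside -0.08 and 46.8% above 0 for all genes (54.6% above 0 among genes with at least 10 CPM). Rplp1, an acidic stalk protein of the large subunit, stood at 212, 64.2 and 34 CPM against 14.4, 39.3, 32 and 62.3 CPM. Rps12, of the small subunit, stood at 75.5, 20.1 and 13.6 against 2.15, 9.56, 5.74 and 22.3 CPM. The groups overlapped in both genes, and CD4KO_9768 was the highest library. The list summed to 5135, 2882 and 1921 CPM in CD4KO and to 1288, 2240, 1457 and 3426 CPM in WT. Its median was 0.16 without CD4KO_9768, 0.67 without WT_9771 and 0.03 without both, and without both 25 of 47 members lay above 0 and 0 had an unadjusted p under 0.05. RSEM shares reads among these genes and their many processed copies, so single members are uncertain.

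Oxidative phosphorylation genes had the same dependence. Of 32 tested, 2 were higher and 0 lower at an unadjusted p under 0.05, and the median of 0.31 was -0.02 without CD4KO_9768 and -0.11 without both libraries. Atp5o, a subunit of ATP synthase, stood at 21.8, 10.5 and 7.99 CPM against 3.15, 4.67, 2.46 and 8.14 CPM, and only WT_9772 reached into the CD4KO range. The 12 mitochondrially encoded genes had a median of 0.19 with all libraries and -0.36 without both.

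Interferon-gamma response genes lay slightly above 0 with and without the pair. Of 30 tested, 25 were above 0 and 2 were higher at an unadjusted p under 0.05, with a median log2 change of 0.28 that was 0.29 without CD4KO_9768 and WT_9771, where 22 lay above 0 and 0 had an unadjusted p under 0.05. It was 0.18 with RLE factors, beside -0.21 for all genes and -0.02 for genes with at least 10 CPM. Cd274, which encodes PD-L1, stood at 142, 85.5 and 74.9 CPM in CD4KO and at 60.1, 54.6, 56.6 and 18.6 CPM in WT. All CD4KO libraries lay above all WT libraries, with a log2 change of 1.09 ± 0.46 and an edgeR adjusted p of 0.573. Without CD4KO_9768 and WT_9771 the log2 change of Cd274 was 0.86 ± 0.51. Gbp5, a guanylate-binding protein, stood at 98.7, 111 and 63.7 against 62.2, 67.1, 36.1 and 21.2 CPM, and WT_9749 lay above CD4KO_9770. Cxcl9, a T cell attractant, stood at 398, 210 and 117 against 95, 209, 162 and 80.8 CPM. The summed level of the list was 2351 to 2833 CPM in CD4KO and 1642 to 2670 CPM in WT.

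Antigen presentation genes did not separate the groups. H2-Ab1, the beta chain of MHC class II, stood at 114, 142 and 160 CPM in CD4KO and at 184, 138, 58.3 and 78.7 CPM in WT. Cd74, the invariant chain, stood at 545, 509 and 679 against 1511, 1223, 337 and 227 CPM. The WT libraries fell on both sides of CD4KO in both genes, WT_9748 and WT_9749 high and WT_9771 and WT_9772 low in Cd74. The 9 class II genes tested had a median of 0.18, which was -0.15 without both libraries (-0.23 with 1 gene at 3 counts or fewer in both groups left out), and 1 of them, H2-DMb1, was lower at an unadjusted p of 0.0448. With only WT_9771 and WT_9772, the WT libraries nearest in number to CD4KO, the median was 1.08 and the log2 change of Cd74 went from -0.51 to 1.08 (edgeR adjusted p = 0.367). The 16 class I genes had a median of 0.25 with all and -0.04 without both. The sums of macrophage markers given above overlapped between the groups, and their part in these levels was not tested.

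Capillary and lipid uptake genes were mostly above 0. Of 13 tested, 11 were above 0 and 3 were higher at an unadjusted p under 0.05, with a median of 0.59, beside 4.03% higher over all genes. Without both libraries the median was 0.20, with 9 of 13 above 0 and 1 at an unadjusted p under 0.05. Fabp4, a fatty acid carrier of capillary endothelium, stood at 178, 171 and 60.9 CPM in CD4KO and at 17.7, 61.2, 73.9 and 79.9 CPM in WT. CD4KO_9770 lay within the WT range. Rgcc, a cell cycle regulator found in capillary cells, stood at 47.8, 29.2 and 20.9 against 7.95, 16.1, 16.4 and 11.5 CPM, with no overlap. Aqp7, a glycerol channel, stood at 40, 15.6 and 8.81 against 0.662, 5.73, 4.1 and 2.08 CPM. The log2 changes were 1.24 ± 0.48, 1.33 ± 0.50 and 2.79 ± 1.23, each with an edgeR adjusted p of 0.573. Without CD4KO_9768 and WT_9771 they were 1.14 ± 0.53 for Fabp4 and 2.12 ± 1.41 for Aqp7. Lpl, which releases the fatty acids, had a log2 change of -1.09.

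Endothelial identity genes had a median change of 0.18 over 25 genes, which was -0.04 without WT_9771, and 2 were higher at an unadjusted p under 0.05. Plvap, which forms the diaphragms of fenestrated and leaky endothelium, stood at 402, 672 and 1458 CPM in CD4KO and at 197, 126, 124 and 655 CPM in WT. WT_9772 lay near the middle CD4KO library, and the log2 change was 1.61 ± 0.52 (adjusted p = 0.573, edgeR). Cldn5, the claudin of endothelial tight junctions, stood at 39.7, 89.3 and 134 against 53.6, 46.1, 26.3 and 60.8 CPM. Sprouting genes centred near 0, with a median of -0.13 over 21 genes that was -0.30 without WT_9771 and 0.22 without CD4KO_9768. Cxcr4, the chemokine receptor of tip cells, stood at 9.83, 87 and 61.7 against 96, 221, 14.8 and 164 CPM, low in CD4KO_9768 and in WT_9771. Cxcl12, its ligand, stood at 209, 314 and 230 against 156, 172, 64.8 and 71 CPM, with no overlap and a log2 change of 1.11 ± 0.52 (adjusted p = 0.573, edgeR). Without CD4KO_9768 and WT_9771 the change of Cxcl12 was 1.04 ± 0.58.

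The families around 3 leading genes were written down with those genes known, so their direction is no independent evidence. Of 15 KCTD genes tested, 3 were higher at an unadjusted p under 0.05, namely Kctd12, Kctd5 and Kctd13, beside 4.03% of all genes; without CD4KO_9768 and WT_9771 1 member had such a p. Kctd5, an adaptor of a cullin ubiquitin ligase, stood at 14.6, 7.04 and 1.48 CPM against 0.331, 1.27, 0.821 and 2.65 CPM and overlapped. In the endosomal sorting machinery (22 tested, median 0.22), Stam was lower while Chmp4b and Chmp6, which build the membrane-cutting filament, were higher at an unadjusted p under 0.05. Chmp4b stood at 60.3, 23.3 and 31.6 against 5.13, 13.2, 9.85 and 14.6 CPM, without overlap. Chmp6 stood at 48.7, 6.01 and 4.59 against 0.993, 6.8, 2.46 and 2.46 CPM and overlapped. Its log2 change went from 2.61 to 0.65 without CD4KO_9768 and WT_9771. Of 30 transfer RNA enzymes, 3 were higher and 1 lower at an unadjusted p under 0.05, beside 4.03% and 4.55% of all genes. The lower one was Dars, the aspartyl synthetase, at 0.873, 2.05 and 3.48 against 13.2, 0.637, 26.3 and 17.6 CPM. Nfkbia, the inhibitor induced by canonical NF-kappaB, stood at 91.3, 52 and 28.7 against 21.2, 43.1, 14.8 and 33.7 CPM, while Relb had a log2 change of -0.10.

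**Figure D4:**
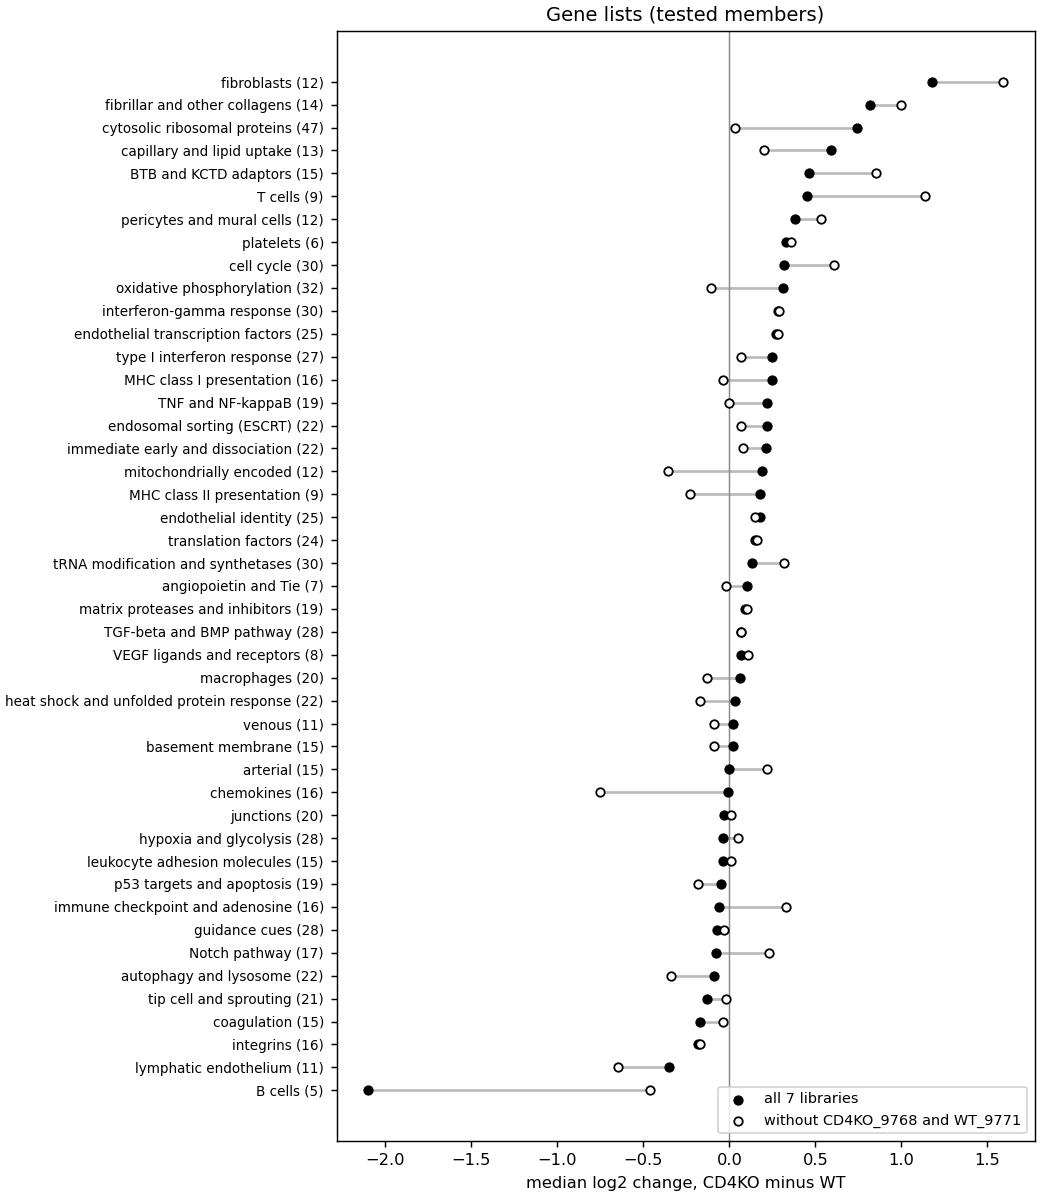
Median log2 change of the tested members of each list with at least 5 tested genes (number in brackets), with all 7 libraries (filled) and without CD4KO_9768 and WT_9771 (open); members with 3 counts or fewer in 1 group enter at the bound that 3 counts give. The ribosomal protein list goes from 0.74 to 0.03, and the interferon-gamma list stays at 0.28 and 0.29.

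Of 45 lists with at least 5 tested genes, 30 had a median above 0 with all libraries and 26 without the pair, and 14 changed sign. With only WT_9771 and WT_9772 as WT, 39 of the 45 medians were higher than with all libraries, for example 0.55 for sprouting and 0.62 for endothelial identity, and the median of all genes with at least 10 CPM was 0.39. The fibroblast markers had a median of 1.29 over 12 genes, or 1.18 with genes at 3 counts or fewer set at their bound. Without the pair 8 of these genes were at or under 3 counts in 1 group, and their median was 1.59 with bounds. T cell markers (9 tested, median 0.45, with Icos and Il7r lower at an unadjusted p under 0.05) summed to 21.2 to 42.1 CPM in CD4KO and 9.09 to 123 CPM in WT, with the highest value in WT_9771. Cell cycle genes (30 tested) had 3 higher and 0 lower at an unadjusted p under 0.05, a median of 0.32, and 0.61 without the pair with bounds.

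To see which of the 2 groups stood apart in a gene, the levels were set beside those of the other 4 backgrounds. The mean of WT was the lowest of the 6 backgrounds in 12 of 12 leading higher genes, and the mean of CD4KO was the highest in 9. In the leading lower genes WT was the highest background in 9 of 12 and CD4KO the lowest in 7. Since these genes were chosen for a difference between CD4KO and WT, an extreme place of either is partly set by that choice. Kctd12 had means of 39.1 CPM in CD4KO (SD 2.87, n = 3), 4.26 in WT (SD 4.37, n = 4), 18.2 in CD8KO, 17.1 in TCRKO, 13.5 in Tie2Cre and 18.2 in Tie2Cre_H2Abf. CD4KO lay above all the others and WT below them. For Trp53inp2 the means were 20.7 in CD4KO, 2.88 in WT and between 21.3 and 30 CPM in the other 4, so that WT alone stood apart. Clint1 had 30.7 in WT, 8.31 in CD4KO and 8.3 to 13.9 CPM in the others, with WT again the background apart.

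CD4KO was then compared with the mean of those 4 backgrounds, each weighted equally and with no WT library. TCRKO and Tie2Cre_H2Abf among them are classed as deficient like CD4KO, so this does not set deficient against competent hosts. Of 14875 genes 0 passed the adjusted threshold in edgeR (0% called), and 1034 were higher (6.95%) and 262 lower (1.76%) at an unadjusted p under 0.05, or 1296 in all (8.71%). Without CD4KO_9768 these were 446 higher and 172 lower, and without it and WT_9771 they were 526 and 223. DESeq2 called 31 genes and limma-voom 6. This comparison shares the CD4KO libraries with the first, so the 2 are set side by side and not counted as separate support. H2-Ab1 had the smallest p, with a log2 change of 2.24 ± 0.40 (adjusted p = 0.057, edgeR). Its mean was 139 CPM in CD4KO (SD 23.4, n = 3), 64.1 in CD8KO, 60.6 in TCRKO, 60.5 in Tie2Cre and 3.15 in Tie2Cre_H2Abf, where the gene itself is the floxed target. Against CD8KO, TCRKO and Tie2Cre alone, a choice made after seeing the data, the change was 1.17 ± 0.44 (adjusted p = 0.621). The mean of WT was 115 CPM (SD 57.2, n = 4), and the change of CD4KO against WT was 0.27 ± 0.53 (adjusted p = 0.935, edgeR).

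The 6 leading higher genes were H2-Ab1, Ubd, Eln, Tspan15, Stra6l and Gbp5. Stra6l stood at 98, 4.73 and 5.77 CPM in CD4KO, so CD4KO_9768 set most of its mean. It also stood at 33.6 CPM in WT_9771. Eln stood at 68.3, 8.7 and 51.4 CPM in CD4KO, low in CD4KO_9769. Gbp5, of the interferon-gamma list, had means of 91 CPM in CD4KO, 46.7 in WT, 16.2 in CD8KO, 20 in TCRKO, 53.3 in Tie2Cre and 77.1 in Tie2Cre_H2Abf, with a log2 change of 1.42 ± 0.36 (adjusted p = 0.304, edgeR). Ubd, a ubiquitin-like protein induced by interferon-gamma and TNF, stood at 58.1, 10.6 and 5.62 CPM in CD4KO and had a mean of 9.94 in WT and of 0.309 to 17.2 CPM in the other 4. CD4KO_9768 set most of its mean of 24.8 CPM. At an unadjusted p under 0.05, 6.95% of all tested genes were higher in this comparison. Of the 30 interferon-gamma genes, 12 were higher at that level and 27 lay above 0, with a median of 0.66. Of the 9 class II genes 5 were higher, with a median of 1.11. The other backgrounds include Tie2Cre_H2Abf, where the class II gene H2-Ab1 is the floxed target, and this count is not given without it. Of 20 macrophage markers 6 were higher and all 20 lay above 0, with a median of 0.87. The share of all genes above 0 and their median in this comparison are not given here, so these medians and counts above 0 lack that background. The macrophage markers summed to 835 CPM in CD4KO (SD 162, n = 3), 759 in WT, 458 in CD8KO, 777 in TCRKO, 399 in Tie2Cre and 397 in Tie2Cre_H2Abf. The interferon-gamma list summed to 2617 CPM in CD4KO, 2089 in WT, 1431 in CD8KO, 1093 in TCRKO, 1701 in Tie2Cre and 2912 in Tie2Cre_H2Abf. In Tie2Cre_H2Abf the SD over 4 libraries was 976 for the interferon-gamma sum and 374 for the macrophage sum. The part of macrophage RNA in these differences was not tested.

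Among the lower genes, Antxr1, an anthrax toxin receptor known from tumour vessels, stood at 0.655, 5.25 and 4.59 CPM in CD4KO and at 7.28, 7.86, 19.7 and 17.8 CPM in WT. Its means in the other backgrounds ran from 7.99 in Tie2Cre to 54.2 CPM in Tie2Cre_H2Abf. CD4KO was the lowest of the 6, with a log2 change of -2.49 ± 0.57 against the other 4 (adjusted p = 0.304, edgeR). Ncoa6 and Inpp5k, described above, were lower in both comparisons, at -1.20 ± 0.39 and -1.32 ± 0.37 against the other 4.

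**Figure D5:**
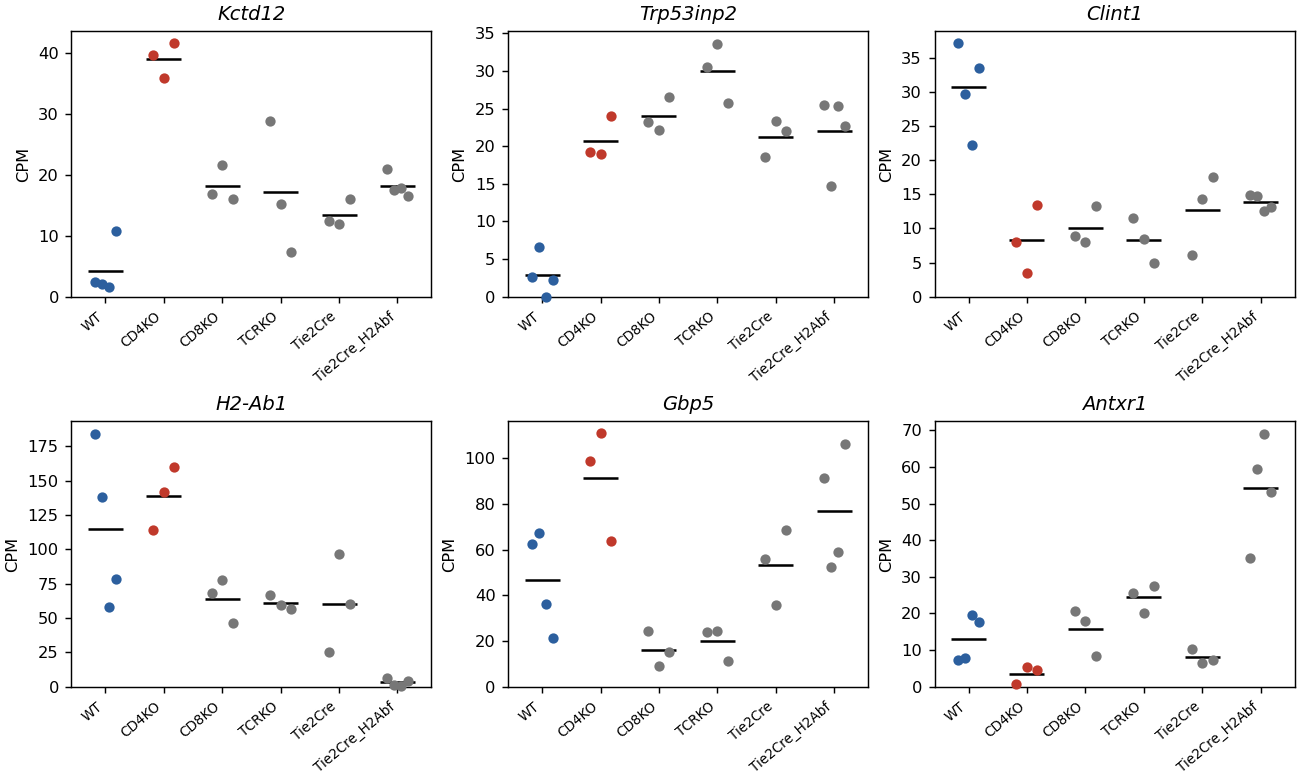
CPM of 6 genes in all 20 libraries by background; points are libraries and lines are means, with WT in blue, CD4KO in red and the other backgrounds in grey. Kctd12 is highest in CD4KO and lowest in WT, Trp53inp2 and Clint1 set WT apart, and H2-Ab1 is near 0 only in Tie2Cre_H2Abf.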

How the data were processed

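Bulk RNA of CD31-positive tumour endothelial cells was amplified by MATQ and made into Nextera XT libraries, per the labels' protocols. The kit does not mark strand, so antisense reads cannot be told from those of the gene. RSEM 1.2.28, STAR, bcl2fastq 2.17, DESeq2 and GRCm38 are named in the submitters' processing notes; the STAR version and annotation are not given in the sources used here. The authors deposited for each library an expected count, RSEM's estimate and not normalized per the file headers, and a TPM value, which the authors scaled by length and depth and which was only looked at here. Of the expected counts 4.45% were not whole, and all were rounded. Of 46983 gene IDs 46488 took a symbol from the GRCm38 annotation.

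The test was edgeR 4.0.16 (robust quasi-likelihood, TMM, filterByExpr) in R 4.3.3 on all 20 libraries in a model of 6 backgrounds, which share 1 estimate of the spread (common biological coefficient of variation 0.995). CD4KO was contrasted with WT, and with the mean of the 4 other backgrounds. CPM values use TMM-scaled library sizes, and a floor of 3 counts was 0.222 to 2.46 CPM in the 7 libraries. P-values were adjusted by Benjamini-Hochberg across every gene tested. Values after ± are approximate standard errors, the size of the log2 change divided by the square root of the F statistic of its test. Alternatives were DESeq2 1.42.0, limma-voom (limma 3.58.1), RLE and upper-quartile factors, other filters, removal of abundant and repeat classes, other sample sets and each CD4KO or WT library left out. The tests were tried on simulated data with known changes.

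The members and lists were chosen with earlier results of these data known. The text names Cd4, Cd8a, Cd3e, Trac, H2-Ab1, Pecam1 and Cdh5, the 12 genes per direction with the smallest p and at least 10 CPM, up to 6 per direction against the other backgrounds, and up to 4 members per list by smallest p with at least 1 CPM. Lpl, Relb, Slamf8, Mpp2, Zfp523, Rnf20, Epcam, Cd3d and Cd3g lie outside this rule and were chosen after their values were seen. Gm, satellite, olfactory and ribosomal-RNA-like genes were only counted. No fitted fold is given where a group held 3 counts or fewer. Library pairs of a group differed by 65.3 to 461 chi-square per degree of freedom, so none was the same library sequenced again. This check cannot tell whether libraries came from the same animal.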

Additional observations from a re-analysis of the deposited data

Results flagged for a closer look

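WT_9771 was the extreme library of the 4 WT libraries in all 8 values that lay further from their neighbours than Dixon's 95% critical value allows, out of 81 groups examined. Chance alone flags about 5% of independent groups. WT_9771 was already known for its satellite and receptor shares, and values of 1 library are not independent, so this rate is no yardstick here. Its satellite-like share was 47.1% and its olfactory and vomeronasal receptor share 0.142%. Loxl2 stood at 2.46 CPM there, which is the floor of 3 counts in that library, and Pecam1 at 435 CPM. The mean log2(CPM + 1) of whole lists in that library was 5.82 for endothelial identity, 4.62 for sprouting, 2.56 for p53 targets and apoptosis, and 4.08 for immediate early genes.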

How the results depend on the processing

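No paired analysis was possible because each library number is used once. In CD4KO against WT the count of called genes was 122 with DESeq2 and 10 with no filter on low counts, 0 to 1 when each CD4KO or WT library was left out in turn (1 without WT_9772), and 0 under the other alternatives tried. Against the other backgrounds it was 31 with DESeq2, 498 with no filter, 2 with RLE factors, 2 with a filter of 5 CPM in 3 libraries, 6 with limma-voom, 4 with the nearest WT library numbers only, 1 without WT_9771 and Tie2Cre_9501, and 0 to 3 when each CD4KO or WT library was left out (3 without CD4KO_9769, 3 without WT_9748, 1 without WT_9771). It was 1 (Slamf8, log2 change 4.59) against CD8KO, TCRKO and Tie2Cre only, a choice made after seeing the data. The cause of these differences was not tested. Single libraries of the other backgrounds were not left out. The comparison with other backgrounds could not be fitted on only the 7 libraries. The 430 values of the 24 leading genes under 18 alternatives kept their direction, and 27 were past the threshold. These genes were chosen for small p in the same libraries, which largely sets their direction. Without the pair, 288 of the 294 genes at 10 CPM with an unadjusted edgeR p under 0.05 also kept their sign. Of 808 list medians, 53 moved by more than the spread between libraries.

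With each library left out in turn, 4 differences in library make-up (CD4KO minus WT) changed sign. The total count ran from -85301, without CD4KO_9770, to 3035193. The ribosomal-RNA-like share ran from -9.54 percentage points, without WT_9771, to 5.66, without WT_9749, and was 2.38 without CD4KO_9770, 1.1 without WT_9748 and 0.983 without WT_9772. The satellite-like share ran from -15.3 to 0.339, the latter without WT_9771. The receptor share ran from -0.0351 to 0.0207, the latter without WT_9771, and was 0.000736 without CD4KO_9770. Precision is limited by 3 and 4 libraries and by the protein-coding counts, 9.84% of 2014883 in WT_9771.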

Other observations

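Some genes of vessel growth and stroma had counts almost only in 1 group, too few for a fitted fold. This was common, since 1690 of all 14875 tested genes had 3 counts or fewer in 1 group. The genes named here were picked from their lists by smallest p. Vegfa, the main endothelial growth factor, had 0, 6 and 128 counts in CD4KO and 1, 0, 1 and 0 in WT, so that CD4KO_9770 alone held nearly all. Col6a2, a chain of collagen VI, had 13, 30 and 96 against 0, 0, 1 and 1, with counts in every CD4KO library and a ratio of summed counts per effective library of 46.3 (exact 95% interval 12.6 to 386). Its mean was 17.5 CPM in TCRKO. Smad6, an inhibitor of BMP signalling, had 0, 18 and 90 against 2, 0, 0 and 1. Slit3, a guidance ligand, had 2, 51 and 44 against 0, 0, 1 and 0. Kcnj8, a potassium channel of mural cells, had 0 counts in each CD4KO library and 68, 0, 1 and 3 in WT, so WT_9748 held nearly all of it. Glycam1, a mucin of high endothelial venules, had 33, 39 and 0 against 0 in each WT library. Icos and Il7r, genes of lymphocytes, stood out in WT_9771, with 19 of 20 WT counts of Icos and 55.8 CPM of Il7r there. These intervals cover counting error only.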
